A study of Mus musculus with 36 samples.

Results

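The genes described here are 8 protein-coding genes of the mitochondrial genome and 2 nuclear genes whose sequence matches 1 of them. They are mt-Nd1, mt-Nd2, mt-Nd4, mt-Cytb, mt-Co1, mt-Co2, mt-Co3 and mt-Atp6, with Gm28661 and Gm13341. They were taken by symbol, and all 10 were found among the 24344 genes of the deposited count table and passed the filter on low counts, although Gm13341 was near 0 outside CAST/EiJ. They had been proposed from their levels by strain in these libraries, so differences between strains are given below as a description and support nothing. Counts of these 10 genes called between strains appear once, beside the share of all genes called. Counts for other gene lists are given under other observations, and those lists were also chosen with earlier results of these data known.

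RNA was taken from the mouse dorsal vagal complex, a part of the hindbrain. It includes the solitary tract nucleus and the motor nucleus from which the vagus nerve runs to the gut. Polyadenylated RNA of 36 libraries was sequenced, 3 libraries for each of 12 groups of strain, diet and sex. The strains were C57BL/6J, a common laboratory strain, CAST/EiJ, a strain derived from wild mice, and NZO/HlLtJ, which becomes obese readily, and the labels give the genotype of all mice as wild type. The control diet had 10% fat with fiber and the diet high in fat and sugar (HFHS) had 44% fat with fiber. Mice were on the diets from 6 weeks of age, and tissue was collected at 15 weeks. The labels tie no library to a litter, cage or batch, so p-values measure the spread between libraries.

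Mitochondria carry their own small circular genome. It codes for core subunits of respiratory complexes I, III and IV and of ATP synthase, together with the ribosomal and transfer RNAs needed to make them, and it is transcribed as long precursors that are cut and given short poly(A) tails. All other subunits come from nuclear genes. Stretches of the mitochondrial genome have been copied into nuclear chromosomes during evolution, and reads from a mitochondrial transcript can be assigned to such a copy where the sequences are alike.

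The table holds 15 of the 37 mitochondrial genes of the gencode vM21 annotation, which are 13 protein-coding genes, 2 ribosomal RNA genes and 0 of 22 transfer RNA genes. Alignment of the transcripts found 11 nuclear copies for 9 of these genes, with at least 90% identity over at least 50% of the copy. Of these copies 7 lie on chromosome 1 and 3 on chromosome 2. Gm28661 (chr1:24614885-24615565, minus strand, GRCm38) is annotated as an unprocessed pseudogene, and its 681 bases are the first 681 of the 684 bases of mt-Co2 (chrM:7013-7696, plus strand) with 0 substitutions. Gm13341 (chr2:22587291-22587962, minus strand, GRCm38) is an unprocessed pseudogene of 672 bases. It carries 16 substitutions against mt-Co2 and lacks its bases 433 to 444. The substitutions, counted from the first base of mt-Co2 with the mt-Co2 base first, are C25T, G57A, T231C, T255C, T291G, G405A, T462C, C474T, C477T, A492C, G493A, C501A, C522T, A594G, T606C and G621A.

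The last 300 bases of mt-Co2 (chrM:7397-7696) and the end of Gm13341 aligned to them (chr2:22587291-22587578, minus strand) are shown, because this stretch holds 11 of the 16 substitutions between the pair. Sequences are from the gencode vM21 transcripts, build GRCm38, 5′ to 3′. Capitals mark the bases that differ between the pair, and in mt-Co2 also the stretch that Gm13341 lacks.
mt-Co2: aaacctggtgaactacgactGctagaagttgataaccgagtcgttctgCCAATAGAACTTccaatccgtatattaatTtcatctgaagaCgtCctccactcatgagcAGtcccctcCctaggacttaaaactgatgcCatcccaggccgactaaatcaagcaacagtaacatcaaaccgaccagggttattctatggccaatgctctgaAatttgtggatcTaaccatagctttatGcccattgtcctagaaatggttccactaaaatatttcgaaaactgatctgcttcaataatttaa
Gm13341: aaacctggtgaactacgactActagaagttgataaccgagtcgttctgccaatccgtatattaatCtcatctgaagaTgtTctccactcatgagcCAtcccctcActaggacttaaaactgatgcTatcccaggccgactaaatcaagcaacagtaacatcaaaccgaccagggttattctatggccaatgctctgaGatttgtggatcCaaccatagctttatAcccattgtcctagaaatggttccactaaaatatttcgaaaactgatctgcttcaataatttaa

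Of the 585 windows of 100 bases in mt-Co2, which is the read length given in the labels, 582 are also in Gm28661 and 88 are also in Gm13341. Only 3 are in neither copy. Of the 573 windows in Gm13341, 88 are also in mt-Co2. These windows and the substitutions above are those of the GRCm38 sequences. No CAST/EiJ sequence was used, so they may differ in that strain.

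The copy of mt-Co1 next to Gm13341 on chromosome 2, Gm13340 (chr2:22588103-22589647, minus strand, GRCm38), differs from mt-Co1 at 37 of 1545 bases. The 100 bases from base 447 to base 546 hold 5 of these substitutions, in capitals, and are shown because no other window of 100 bases holds more. They lie at chrM:5774-5873 and chr2:22589102-22589201.
mt-Co1: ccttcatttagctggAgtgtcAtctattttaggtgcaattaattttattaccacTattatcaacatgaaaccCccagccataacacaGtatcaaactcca
Gm13340: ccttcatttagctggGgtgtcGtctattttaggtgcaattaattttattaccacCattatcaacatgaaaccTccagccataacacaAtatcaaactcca

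Levels are CPM, the counts of a gene per 1000000 counts of its library, and library totals ran from 22.0 to 49.6 M (M, 1000000 counts). The 15 mitochondrial genes and 11 copies together took 6.30% to 9.18% of the counts of a library. Their mean CPM was 77703 ± 8556 (SD, n = 12) in C57BL/6J, 77749 ± 6449 (SD, n = 12) in CAST/EiJ and 73045 ± 5794 (SD, n = 12) in NZO/HlLtJ, with overlapping ranges. Hox genes, which mark the hindbrain, summed to under 5 CPM in 3 libraries, CAST/EiJ male control 1 and 3 and NZO/HlLtJ male control 3, and to between 19.0 and 356 CPM in the others. The first 2 of these libraries had the highest sums of cerebellar markers, 3026 and 3431 CPM. Mean Hox sums on the control diet and on HFHS were 89.6 and 160 CPM in C57BL/6J. They were 83.8 and 265 CPM in CAST/EiJ and 58.4 and 159 CPM in NZO/HlLtJ. Mean cerebellar sums, in the same order, were 1308 and 1023, 1680 and 610, and 1206 and 1228 CPM. The ranges of Hox and cerebellar sums overlapped between the diets in each strain. In CAST/EiJ neuronal and red blood cell sums did not. Neuronal markers there summed to 5606 to 7872 CPM on the control diet and to 7925 to 8367 CPM on HFHS. Red blood cell markers summed to 659 to 2629 CPM and to 210 to 388 CPM, in that order. Pituitary markers summed to 18223 CPM in NZO/HlLtJ male control 1 and to at most 24.1 CPM elsewhere. In bulk tissue, fewer cells of a type and less RNA per cell cannot be told apart.

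**Figure D1:**
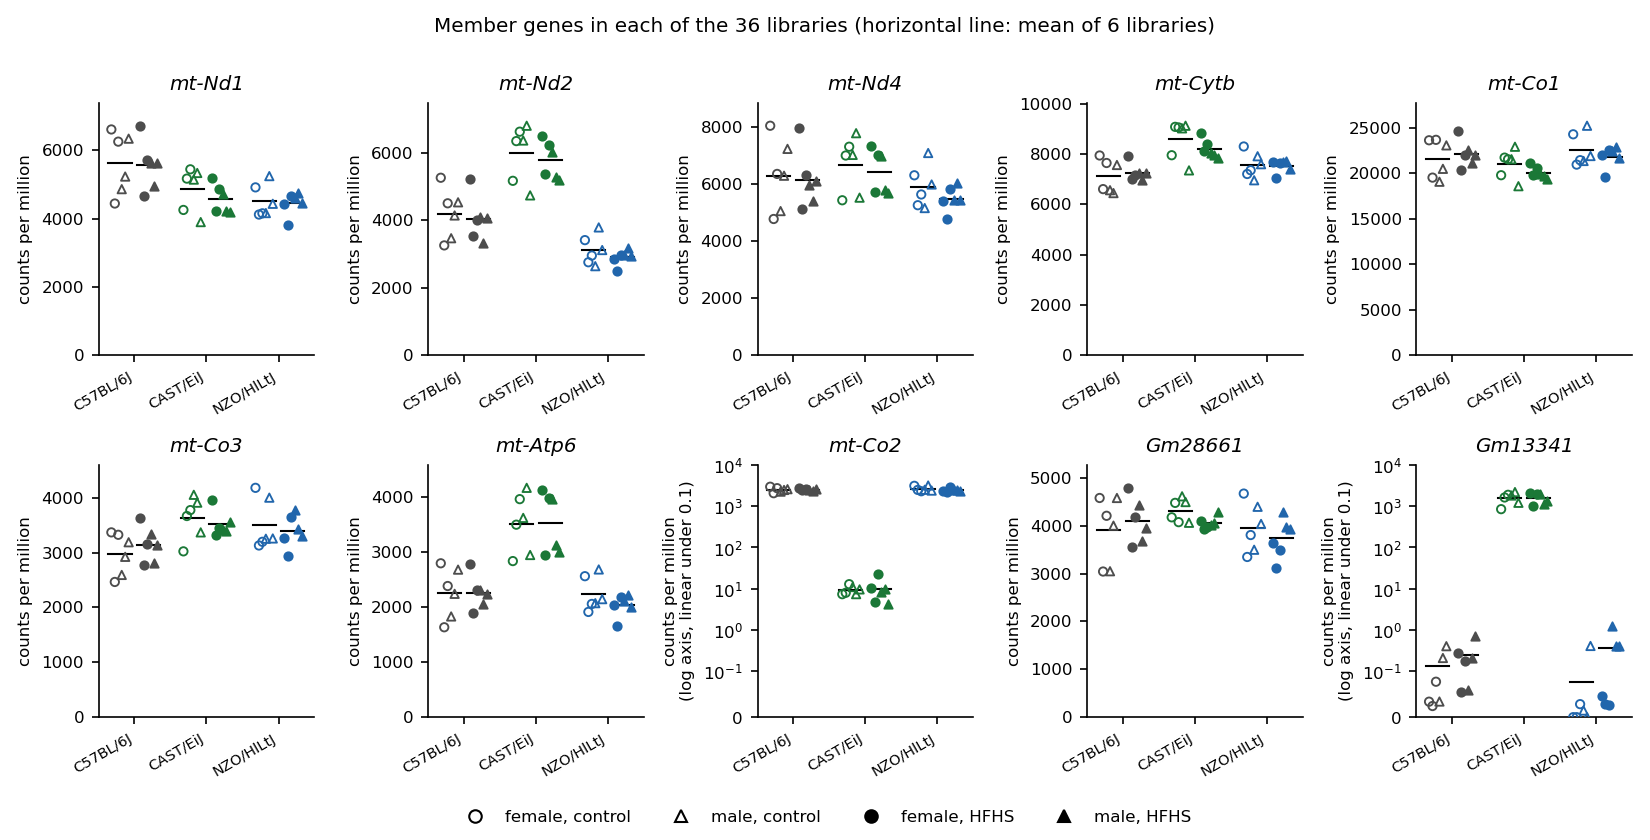
CPM of the 10 genes in each of the 36 libraries by strain, with open symbols for the control diet and filled symbols for HFHS, circles for females and triangles for males, and lines for the mean of 6 libraries. The axes of mt-Co2 and Gm13341 are logarithmic above 0.1 CPM. mt-Co2 lies at 4.37 to 22.9 CPM in CAST/EiJ and Gm13341 at 0 to 1.24 CPM in the other strains.

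The 3 complex I genes code for membrane subunits of NADH dehydrogenase, the entry point of electrons from NADH. mt-Nd2 (chrM:3914-4951) showed the clearest order of strains among them. Over 12 libraries each, the lowest, median and highest values were 4731, 6130 and 6795 CPM in CAST/EiJ, 3249, 4072 and 5254 CPM in C57BL/6J, and 2484, 2961 and 3782 CPM in NZO/HlLtJ. CAST/EiJ and NZO/HlLtJ did not overlap, and C57BL/6J overlapped both. The mean of CAST/EiJ was 1.43 times that of C57BL/6J and 1.96 times that of NZO/HlLtJ.

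mt-Nd1 (chrM:2751-3707) followed another order. From lowest through median to highest, it stood at 4440, 5638 and 6719 CPM in C57BL/6J, 3896, 4796 and 5442 CPM in CAST/EiJ, and 3809, 4454 and 5243 CPM in NZO/HlLtJ. All strains overlapped, and the means of CAST/EiJ and NZO/HlLtJ differed by less than 1 SD. mt-Nd4 (chrM:10167-11544) had a mean of 6558 ± 849 CPM in CAST/EiJ, one of 6228 ± 1082 CPM in C57BL/6J and one of 5704 ± 610 CPM in NZO/HlLtJ (SD, n = 12 each), with all ranges overlapping. mt-Nd1 has no nuclear copy by the rule. The copies of mt-Nd2 and mt-Nd4, Gm13339 and Gm28439, took at most 0.00645% and 0.0807% of the reads of the gene with its copy in any library. Gm28439 took so few reads although its 876 bases match mt-Nd4 without a substitution.

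mt-Cytb (chrM:14145-15288) codes for cytochrome b, the mitochondrial subunit of complex III, and has no copy by the rule. It had lowest, median and highest values of 7350, 8252 and 9127 CPM in CAST/EiJ, 6957, 7614 and 8301 CPM in NZO/HlLtJ, and 6446, 7198 and 7943 CPM in C57BL/6J. The 3 ranges overlapped. It varied little between libraries of a strain, with a coefficient of variation of 4.99% in NZO/HlLtJ to 7.24% in CAST/EiJ.

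Complex IV, cytochrome c oxidase, has 3 mitochondrial subunits. mt-Co1 (chrM:5328-6872), its catalytic subunit, had the highest level of the members per kilobase of transcript as well as per gene. Per kilobase it stood at 14143 ± 1143 CPM in C57BL/6J, 13294 ± 803 CPM in CAST/EiJ and 14360 ± 964 CPM in NZO/HlLtJ (SD, n = 12 each). Its ranges over libraries, not divided by length, overlapped at 19069 to 24679, 18579 to 22918 and 19543 to 25231 CPM. Its copies Gm13340 and Gm29216 took at most 0.0303% and 0.00941% of the reads of mt-Co1 with its copies. Gm13340 itself followed the strains without overlap, with means of 0.454 ± 0.155 CPM in C57BL/6J, 1.82 ± 0.341 CPM in NZO/HlLtJ and 5.10 ± 0.675 CPM in CAST/EiJ (SD, n = 12 each).

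mt-Co3 (chrM:8607-9390), a core subunit without a redox centre, had means of 3060 ± 347 CPM in C57BL/6J, 3448 ± 375 CPM in NZO/HlLtJ and 3576 ± 306 CPM in CAST/EiJ (SD, n = 12 each), with all ranges overlapping. Its copy Gm28437, identical over 783 bases, took 49.7% ± 1.81 of the reads of the pair in CAST/EiJ, 50.6% ± 1.17 in NZO/HlLtJ and 50.2% ± 0.915 in C57BL/6J (SD, n = 12 each). The reads of this gene were shared nearly evenly between both loci in every strain.

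mt-Co2, the subunit that takes electrons from cytochrome c, was listed at a very low level in CAST/EiJ. Its lowest, median and highest values were 4.37, 8.96 and 22.9 CPM in CAST/EiJ, 2063, 2530 and 2959 CPM in C57BL/6J, and 2238, 2444 and 3168 CPM in NZO/HlLtJ. CAST/EiJ lay below every library of both other strains, which overlapped each other. The mean of C57BL/6J was 259 times and that of NZO/HlLtJ 263 times the mean of CAST/EiJ. These CAST/EiJ values rest on 183 to 715 expected counts a library.

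Gm13341 showed the opposite order. The lowest, median and highest values of this copy were 847, 1718 and 2195 CPM in CAST/EiJ, 0.0243, 0.125 and 0.721 CPM in C57BL/6J, and 0, 0.0285 and 1.24 CPM in NZO/HlLtJ. All 12 CAST/EiJ libraries lay above all others. Outside CAST/EiJ its reads were few, with 74.6 expected counts summed over 12 libraries in C57BL/6J and 110 in NZO/HlLtJ, of which 58.1 were in NZO/HlLtJ male HFHS 1. After rounding, 3 NZO/HlLtJ libraries held 0 counts.

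Gm28661, the copy identical to mt-Co2 over its length, was high in all strains. Its lowest, median and highest values were 3930, 4090 and 4613 CPM in CAST/EiJ, 3042, 4096 and 4790 CPM in C57BL/6J, and 3119, 3866 and 4670 CPM in NZO/HlLtJ. The strains overlapped, and the means of each pair differed by less than the larger of their SDs.

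Summed, mt-Co2 and its 2 copies reached 4952 to 6696 CPM in CAST/EiJ, 5104 to 7591 CPM in C57BL/6J and 5356 to 7784 CPM in NZO/HlLtJ. The ranges overlapped in all pairs of strains, and the mean of CAST/EiJ was 0.889 times that of C57BL/6J. Within the sum, Gm28661 took 61.2% ± 1.85 in C57BL/6J, 60.1% ± 2.76 in NZO/HlLtJ and 72.6% ± 5.88 in CAST/EiJ (SD, n = 12 each). mt-Co2 took 38.8% ± 1.85 in C57BL/6J, 39.9% ± 2.77 in NZO/HlLtJ and 0.167% ± 0.0787 in CAST/EiJ. Gm13341 took 27.2% ± 5.85 in CAST/EiJ and at most 0.0182% in any library of the other strains. Whether the reads of a strain came from the mitochondrial or the nuclear locus was not tested.

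**Figure D2:**
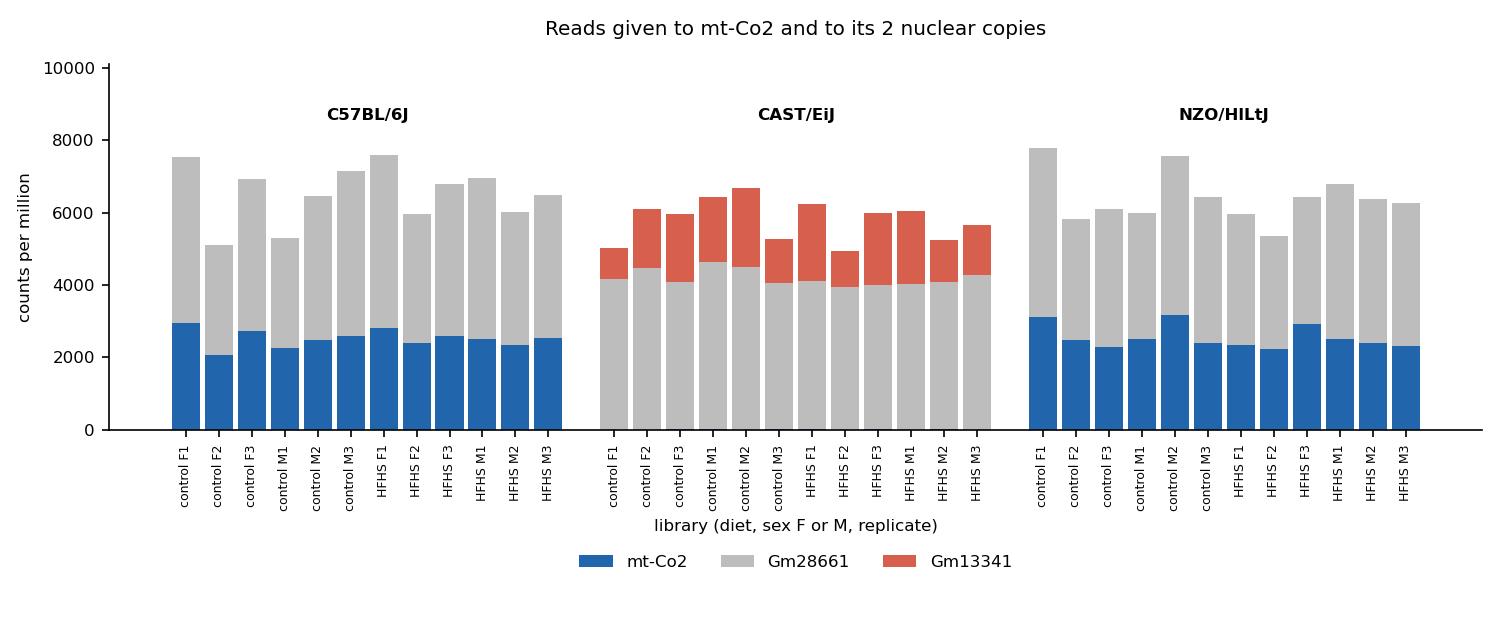
CPM of mt-Co2, Gm28661 and Gm13341 stacked for each library, grouped by strain. The stacks run from 4952 to 7784 CPM, with Gm13341 in the place of mt-Co2 in the 12 CAST/EiJ libraries.

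mt-Atp6 (chrM:7927-8607) codes for the subunit of ATP synthase that forms its proton channel. Its lowest, median and highest values were 2830, 3552 and 4158 CPM in CAST/EiJ, 1630, 2268 and 2790 CPM in C57BL/6J, and 1655, 2083 and 2678 CPM in NZO/HlLtJ. CAST/EiJ lay above all libraries of both other strains, and its mean was 1.55 times that of C57BL/6J. The copy Gm10925 (chr1:24613974-24614651, GRCm38), identical to mt-Atp6 over 678 bases, went the other way, with means of 1481 ± 115 CPM in CAST/EiJ, 2431 ± 341 CPM in C57BL/6J and 2359 ± 277 CPM in NZO/HlLtJ (SD, n = 12 each). Summed, the pair overlapped in all strains, at 4990 ± 511, 4689 ± 697 and 4491 ± 530 CPM. In the sum the mean of CAST/EiJ was 1.06 times that of C57BL/6J.

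**Figure D3:**
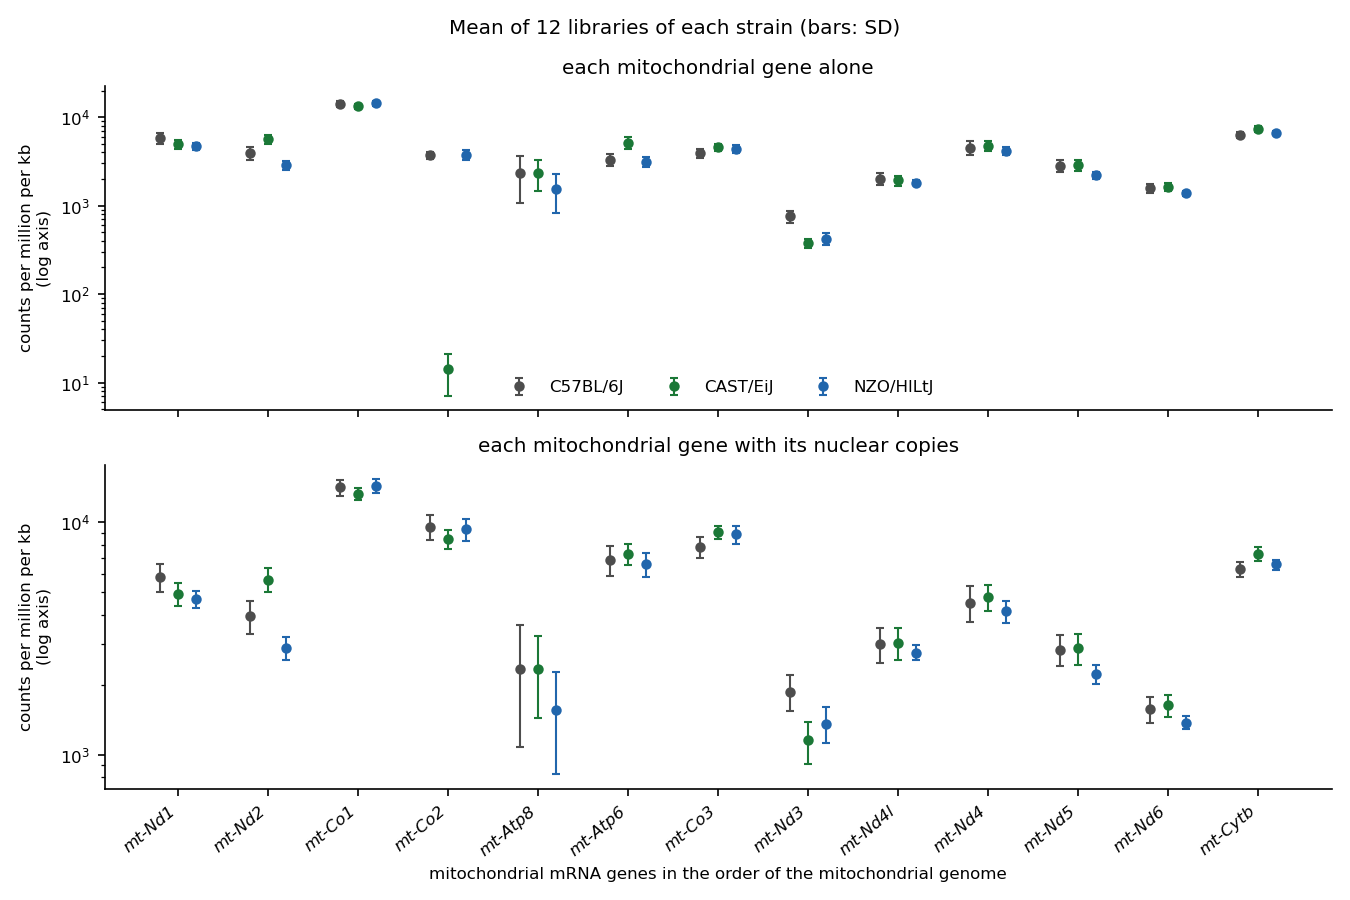
Mean CPM per kilobase (log axis) of the 13 mitochondrial protein-coding genes in genome order for each strain, alone above and with nuclear copies below, with bars for the SD of 12 libraries. The CAST/EiJ point of mt-Co2 stands at 14.2 CPM per kilobase alone and at 8485 with the copies.

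**Figure D4:**
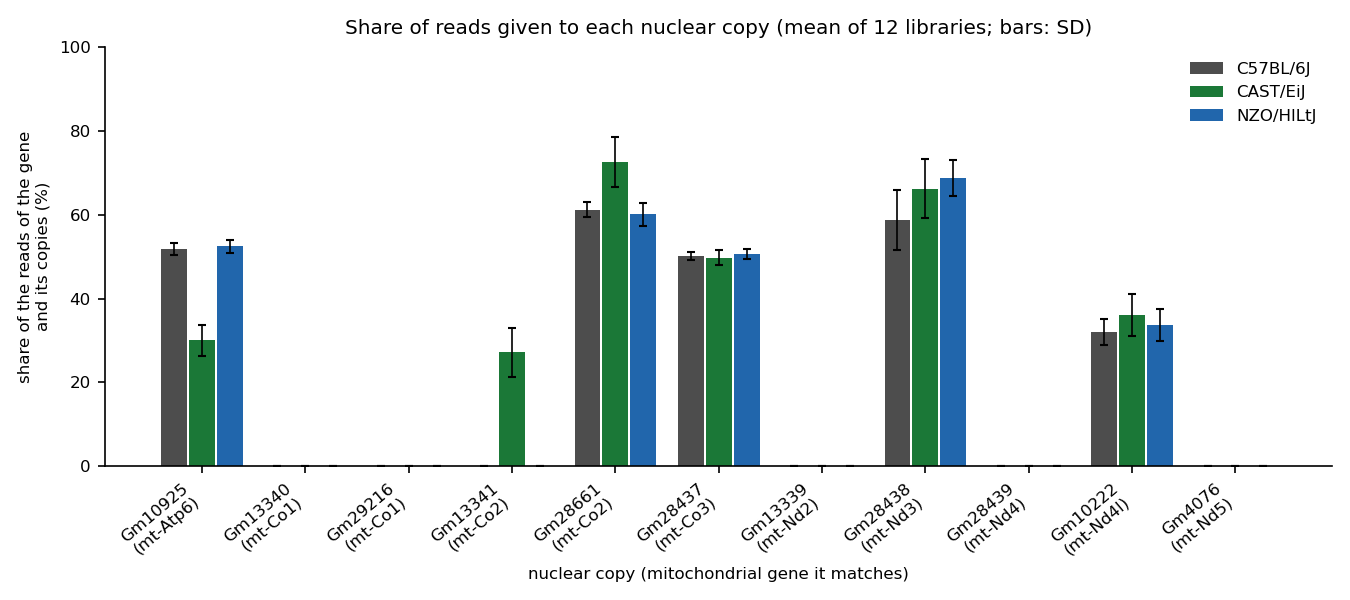
Share of the reads of a mitochondrial gene and its copies that went to each of the 11 copies, as the mean of 12 libraries of each strain with bars for the SD. In C57BL/6J and NZO/HlLtJ Gm10925 stands at 51.9% and 52.5%, against 30.0% in CAST/EiJ, and Gm13341 at 0.00284% and 0.00334%, against 27.2% in CAST/EiJ.

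Of the 10 genes, 3 did not overlap between CAST/EiJ and C57BL/6J (mt-Co2, mt-Atp6 and Gm13341), against 12.4% of the 20108 genes tested. The same 3 and mt-Nd2 did not overlap between NZO/HlLtJ and CAST/EiJ, against 10.6% of all genes. Between NZO/HlLtJ and C57BL/6J the count was 0 of 10, against 3.65% of all genes. By edgeR's quasi-likelihood test, 7 of the 10 had an adjusted p under 0.05 for CAST/EiJ minus C57BL/6J, 5 for NZO/HlLtJ minus CAST/EiJ and 2 for NZO/HlLtJ minus C57BL/6J, where 52.2%, 49.8% and 23.8% of all genes did. The members were chosen on these contrasts, and nothing is read from these counts.

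The question of the series is how diet and genotype act together, and diet was not part of the choice of these genes. In C57BL/6J mt-Co1 ran from 19069 to 23679 CPM on the control diet and from 20348 to 24679 CPM on HFHS. In CAST/EiJ it ran from 18579 to 22918 CPM on the control diet and from 19337 to 21088 CPM on HFHS, and in NZO/HlLtJ from 20954 to 25231 CPM and from 19543 to 22838 CPM. The diets overlapped in each strain, as they did for all 10 genes, against 0.129%, 0.835% and 0.955% of all genes that did not overlap in C57BL/6J, CAST/EiJ and NZO/HlLtJ.

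No member passed the test for diet (edgeR's quasi-likelihood test with Benjamini-Hochberg adjustment over 20108 genes). The counts called were 0 of 10 in C57BL/6J, CAST/EiJ and NZO/HlLtJ, where 0%, 0.269% and 0.0497% of all genes were called. In C57BL/6J and NZO/HlLtJ these counts include Gm13341, whose few reads there leave 9 genes that the test bears on. At an unadjusted p under 0.05 the counts were also 0 of 10, and DESeq2 and limma called 0 in each strain. The log2 changes of the 8 mitochondrial genes, HFHS minus control, lay between -0.06 and 0.07 in C57BL/6J, between -0.08 and 0.06 in CAST/EiJ and between -0.14 and 0 in NZO/HlLtJ. Over all genes tested the median change was within 0.002 of 0 in each strain. Mean Hox sums also differed between the diets. In CAST/EiJ the neuronal and red blood cell sums of the diets did not overlap. Diet and the tissue sampled therefore cannot be fully told apart.

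The 95% intervals show what sizes the data leave room for. For mt-Co1 the log2 change was 0.03 with an interval from -0.13 to 0.18 in C57BL/6J, -0.05 from -0.21 to 0.10 in CAST/EiJ, and -0.04 from -0.20 to 0.11 in NZO/HlLtJ. mt-Cytb was bounded as closely, with intervals from -0.13 to 0.16, from -0.20 to 0.09 and from -0.15 to 0.14. The interval of mt-Atp6 reached from -0.43 to 0.16 in NZO/HlLtJ, and that of mt-Nd4 from -0.38 to 0.17. For mt-Co2 the intervals were wider, from -0.46 to 0.47 in C57BL/6J, from -0.45 to 0.57 in CAST/EiJ and from -0.58 to 0.35 in NZO/HlLtJ. The fit shares its estimate of the spread of a gene over all groups. The coefficient of variation of mt-Co2 was 9.65% in C57BL/6J, 12.7% in NZO/HlLtJ and 49.7% in CAST/EiJ. Its intervals are therefore not a measure of its spread in any strain alone, and that of CAST/EiJ may be too narrow.

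Gm28661 changed by 0.06 ± 0.10 (SE) in C57BL/6J, -0.07 ± 0.10 in CAST/EiJ and -0.08 ± 0.10 in NZO/HlLtJ on the log2 scale. Gm13341 changed by 0.03 ± 0.25 in CAST/EiJ, where it ran from 847 to 2195 CPM on the control diet and from 1017 to 2115 CPM on HFHS. In the other strains it was at most 1.24 CPM on either diet, and no change is read there.

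**Figure D5:**
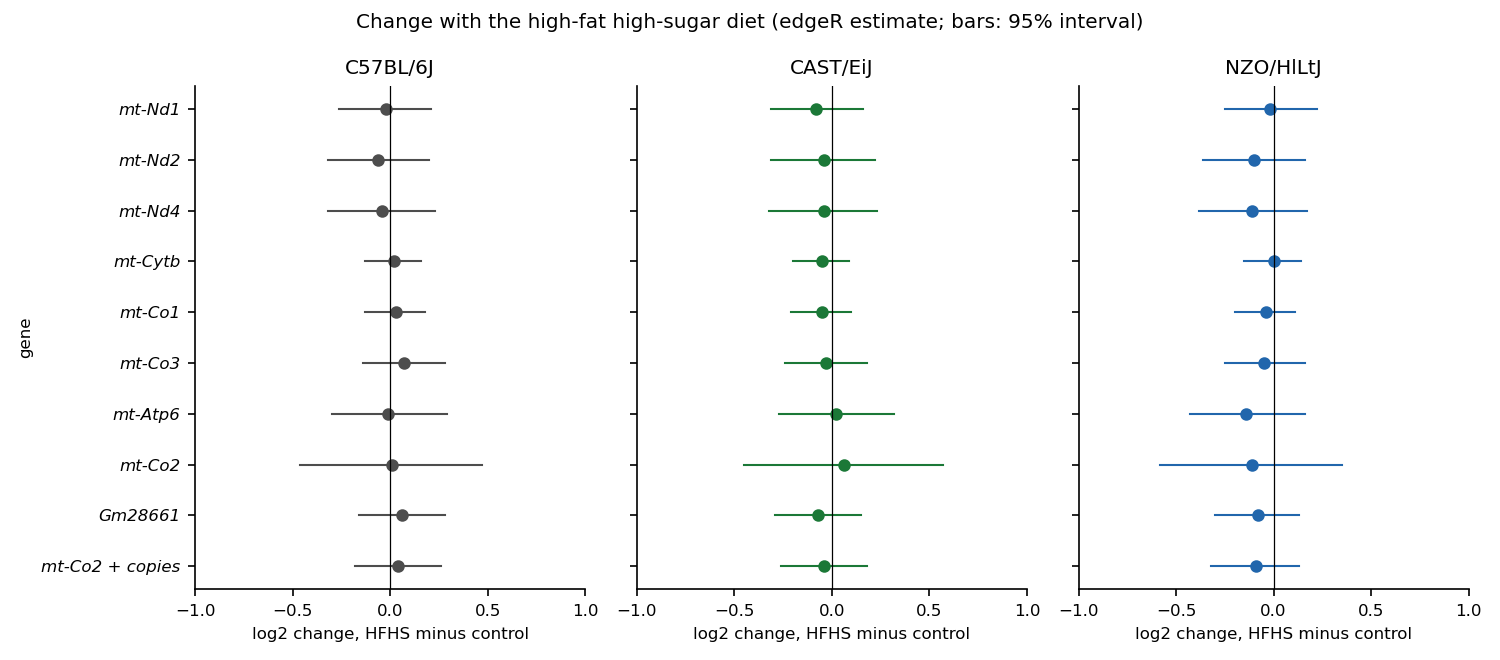
Log2 change with diet, HFHS minus control, for the 8 mitochondrial genes, Gm28661 and the sum of mt-Co2 with its copies in each strain, with bars for the 95% interval of edgeR's estimate. Every interval includes 0. Gm13341 is not drawn, since it was near 0 outside CAST/EiJ.

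Adding the copies to each of the 9 mitochondrial genes that have them gave 0 sums called for diet in each strain, where 0%, 0.269% and 0.0498% of all genes of the summed table were called. The sum of mt-Co2 with its copies changed by 0.04 ± 0.11 in C57BL/6J, -0.04 ± 0.11 in CAST/EiJ and -0.09 ± 0.11 in NZO/HlLtJ (log2, SE). The difference in diet effect between strains was tested too. By edgeR's quasi-likelihood test 0 of 10 members passed for any difference among the 3 strains and for each of the 3 pairs of strains, where 0% of all genes did in each. The lowest adjusted p of a member among these 4 tests was 0.747, and 0 members had an unadjusted p under 0.05.

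The division of reads between a gene and its copies was compared between diets by an exact two-sided permutation test, which redraws the diets within sexes in 400 ways and cannot give a p under 0.00500. Gm28661 took 60.7% ± 2.15 of mt-Co2 with its copies on the control diet and 61.7% ± 1.53 on HFHS in C57BL/6J (SD, n = 6 each; exact permutation p = 0.410, adjusted p = 0.927). In CAST/EiJ it took 73.4% ± 5.90 and 71.9% ± 6.32 (exact permutation p = 0.680, adjusted p = 0.927), and Gm13341 took 26.5% ± 5.90 and 27.9% ± 6.26 (exact permutation p = 0.685, adjusted p = 0.927). In NZO/HlLtJ Gm28661 took 59.8% ± 2.29 and 60.3% ± 3.38 (exact permutation p = 0.790, adjusted p = 0.927). Of all 33 tests of 11 copies in 3 strains, 4 had an exact p under 0.05 and 0 an adjusted p under 0.05. A single test at the smallest possible p is adjusted to 0.165, so no share could pass by itself. The 4 were Gm10925 and Gm4076 in C57BL/6J and Gm10222 and Gm13341 in NZO/HlLtJ. Gm13341 took 0.00118% ± 0.00256 of mt-Co2 with its copies on the control diet and 0.00549% ± 0.00689 on HFHS (SD, n = 6 each; exact permutation p = 0.0150, adjusted p = 0.247), from few reads. The lowest p was that of Gm10222, the copy of mt-Nd4l, at 31.6% ± 2.17 on the control diet and 35.8% ± 4.05 on HFHS (exact permutation p = 0.00500, the smallest possible, adjusted p = 0.165).

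Sex gave 0 of 10 members called in each strain by edgeR's quasi-likelihood test, where 0.0746%, 0.109% and 0.0746% of all genes were called in C57BL/6J, CAST/EiJ and NZO/HlLtJ. The log2 changes of the 8 mitochondrial genes, male minus female, lay between -0.14 and -0.06 in C57BL/6J and between 0.01 and 0.11 in NZO/HlLtJ. In CAST/EiJ they lay between -0.43, for mt-Co2, and 0 (mt-Co2 edgeR adjusted p = 0.498).

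Gm13341 in NZO/HlLtJ was the 1 member with an unadjusted p under 0.05 for sex. It rests on few reads, and nothing is read from that test or from DESeq2, which called it. Females of NZO/HlLtJ held 0, 0.000246 and 1.29 expected counts on the control diet and 2.19, 1.07 and 1.20 on HFHS. Males held 0.525, 0 and 20.4 on the control diet and 58.1, 12.3 and 13.2 on HFHS. The sexes overlapped, and 4 of 6 males lay above all females. The levels behind these counts are at most 1.24 CPM.

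The 8 mitochondrial genes varied together from library to library. After the 12 group means were taken off, the Pearson correlation of log2 CPM over 36 libraries ran from 0.37 to 0.98 over their 28 pairs, with a median of 0.92. The pairs with mt-Co2 were the loosest, at 0.37 to 0.56. The 36 libraries include the 12 of CAST/EiJ, where mt-Co2 stood at only 4.37 to 22.9 CPM. Gm28661 followed the mitochondrial genes, at 0.82 to 0.88 with all but mt-Co2, for which it was 0.28. Gm13341, over the 12 CAST/EiJ libraries, correlated at 0.94 with the mean of the mitochondrial genes other than mt-Co2. These values describe libraries that share their depth and their reads between loci, and no test was made.

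The correlation of that mean over the 36 libraries, group means taken off, was -0.23 with the log2 total count, 0.30 with the Hox genes, 0.01 with cerebellar markers, 0.31 with neuronal, 0.46 with astrocyte, 0.36 with oligodendrocyte, 0 with microglial, 0.23 with choroid plexus, -0.24 with pituitary and -0.11 with red blood cell markers. Of the lists of mitochondrial function, it was 0.44 with the mitochondrial ribosomal RNAs, -0.59 with genes of mitochondrial DNA maintenance and -0.27 with those of transcription and RNA processing. With nuclear subunits it was -0.44 for complex I, -0.45 for complex III, -0.36 for complex IV and -0.34 for ATP synthase. Their part in the spread of the mitochondrial genes was not tested.

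By a search of 12925 protein-coding nuclear genes, the 5 whose level was most like the mean of the 8 mitochondrial genes over 36 libraries, group means taken off, were Smim15 (r = 0.93), Mob4 (0.92), Sh3bgrl (0.91), Eif5 (0.91) and Sgpp1 (0.91). Eif5 codes for a translation initiation factor. With the libraries as they are, the genes most like Gm28661 were Slc25a46 (0.76), Sgpp1 (0.76), Cbx3 (0.75), Zfp942 (0.75) and Rab1a (0.75). Those most like Gm13341 were Zfp141 (0.99), As3mt (0.98), Tas1r1 (0.98), Rpl17 (0.98) and Retsat (0.98), and the strain difference of Gm13341 is part of these values.

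The nuclear genes of the same complexes were listed for comparison. Of 72 tested nuclear subunits of complexes I, III, IV and ATP synthase, 0 were called for diet in any strain by edgeR's quasi-likelihood test. The medians of the 4 lists lay between 0.02 and 0.08 on the log2 scale over the strains. Of 48 tested genes for mitochondrial transcription, RNA processing and DNA maintenance, 0 were called for diet as well, with list medians between 0 and 0.03. The medians of all genes tested were within 0.002 of 0.

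The other mitochondrial genes are given by strain. mt-Nd3, a complex I subunit, was higher in C57BL/6J at 213 to 325 CPM than in CAST/EiJ at 110 to 172 CPM and NZO/HlLtJ at 109 to 187 CPM, without overlap. With its copy Gm28438 added, which differs from it by the substitution T3C, C57BL/6J overlapped both. mt-Rnr2, the large ribosomal RNA, stood at 4749 ± 663 CPM in C57BL/6J, 3758 ± 570 CPM in NZO/HlLtJ and 3387 ± 321 CPM in CAST/EiJ (SD, n = 12 each), in libraries made from polyadenylated RNA. mt-Rnr1, the small ribosomal RNA, stood at 2610 ± 307 CPM in C57BL/6J, 2489 ± 312 CPM in CAST/EiJ and 2131 ± 270 CPM in NZO/HlLtJ (SD, n = 12 each), with overlapping ranges. mt-Nd5 stood at 5236 ± 777 CPM in CAST/EiJ, 5172 ± 791 CPM in C57BL/6J and 4059 ± 371 CPM in NZO/HlLtJ, and its copy Gm4076 on chromosome 13 was at most 0.516 CPM in any library. mt-Nd6, the 1 protein gene on the other strand, ranged from 636 to 993 CPM over all strains. Its means were 818 ± 105 CPM in C57BL/6J, 846 ± 93.2 CPM in CAST/EiJ and 714 ± 45.0 CPM in NZO/HlLtJ (SD, n = 12 each). In the same order, mt-Nd4l had means of 602 ± 89.3, 572 ± 74.7 and 541 ± 31.1 CPM. mt-Atp8 overlaps mt-Atp6 in the genome and ranged from 151 to 887 CPM in C57BL/6J alone. Its means, again in that order, were 479 ± 258, 479 ± 184 and 317 ± 148 CPM.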

How the data were processed

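RNA-seq of 36 libraries was deposited as a table of expected counts per gene. Per the labels' protocols, polyA RNA was sequenced with paired reads of 100 bases. GRCm38 is the build and DESeq2 the tool given per the submitters' processing notes, with no version or role. Which aligner and counting program were used, and whether strand was, is not given in the sources used here. The authors also deposited a table of log2 values (a variance-stabilising transformation), used as an alternative.

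The 10 genes and all gene lists were chosen with earlier results of these data known. All 10 genes are named, with the other mitochondrial genes and copies in the table, the 5 genes most like them by correlation, and, of the lists of nuclear genes of mitochondrial function, the 3 largest called changes in each direction against C57BL/6J.

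After rounding, the expected counts were tested with edgeR 4.0.16 (glmQLFit with its robust option, TMM scaling, factors 0.959 to 1.04) in R 4.3.3. The filter on low counts (filterByExpr, at least 10 counts in enough libraries and 15 in all) left 20108 genes. A mean was fitted to each of the 12 groups with 24 residual degrees of freedom, and genes with a Benjamini-Hochberg adjusted p under 0.05 are called. Intervals take the estimate and its SE with 24 degrees of freedom. Levels are CPM of unrounded counts, and estimates under 1e-06 were set to 0. Correlations among members and the search for genes most like them used edgeR's log2 CPM of rounded counts after TMM scaling. Those of the mean of the mitochondrial genes other than mt-Co2 used log2(CPM + 0.5). Copies were found with blastn 2.17.0 on gencode vM21 transcripts, which held 24191 of the 24344 genes. Reads assigned between near-identical loci follow the authors' counting, so single values of a gene and its copy are uncertain. On simulated counts for diet in CAST/EiJ over 20108 genes, 100 of 100 genes changed by 1 log2 unit and 63 of 100 changed by 0.5 were called, with 12 false calls. The simulation gave all genes the same spread and no differences of strain or tissue, and the changed genes lay above 1 CPM. It checks the fit and does not show which changes the real libraries could reveal. The 36 replicate pairs differed beyond counting noise (chi-square per degree of freedom from 6.9 to 126) and 0 were identical. Alternatives were other scalings, no filter, DESeq2 1.42.0, limma 3.58.1 on the log2 values, fits of fewer strains or libraries and a Hox score covariate. edgeR without its robust option, and the alternatives for sums of a gene with its copies, were chosen after seeing the data.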

Additional observations from a re-analysis of the deposited data

Results flagged for a closer look

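In each set of 6 libraries of a strain and diet, the highest and lowest library were compared with the rest for the 10 genes and for the shares of Gm28661 and Gm13341 in mt-Co2 with its copies. A library far from the others by Dixon's test was found in 11 of 72 sets, where chance gives about 1 in 20 sets, or 3.60 of 72. The sets share libraries and genes that vary together, so they are not independent.

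In NZO/HlLtJ on HFHS, female 2 was lowest for mt-Co1 (19543 CPM, the next 21705) and for mt-Nd1 (3809 CPM, the next 4437). In CAST/EiJ on HFHS, female 3 was highest for mt-Co2 (22.9 CPM, the next 10.4) and female 1 for mt-Co3 (3968 CPM, the next 3559). In C57BL/6J on HFHS, female 1 was highest for mt-Cytb (7907 CPM, the next 7243).

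The other 6 concern Gm13341 where it is near 0. In C57BL/6J on HFHS, male 3 was highest at 0.721 CPM, and at 0.0111% of mt-Co2 with its copies. In NZO/HlLtJ on the control diet, male 3 was highest at 0.411 CPM, and at 0.00640% of the sum. In NZO/HlLtJ on HFHS, male 1 was highest at 1.24 CPM, and at 0.0182% of the sum.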

How the results depend on the processing

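The count of members called for diet in each strain, for the differences of diet between strains and for sex was 0 under every alternative run, with 1 exception: DESeq2 called 1 member for sex in NZO/HlLtJ, Gm13341, which is near 0 there. Leaving out each library in turn gave 0 members for diet and sex. Sums of a gene with its copies gave 0 calls for diet in each strain in every alternative fit. Without the 3 libraries low in Hox reads, 0 members were called for diet. Over all genes, the count called for diet in CAST/EiJ was 54 by edgeR, 708 by DESeq2, 277 by limma, 145 with that strain alone in the fit, 4 without the libraries low in Hox reads and 0 with a Hox score as covariate. In NZO/HlLtJ these counts were 10, 100, 14, 16, 182 and 0. Over the alternatives, the diet change of the 8 mitochondrial genes ran from -0.33 to 0.26 on the log2 scale, with both ends in CAST/EiJ. Against totals without mitochondrial genes and copies, 23 of 30 levels by strain moved by less than 1 SD. No paired analysis was possible because the labels give no replicate numbers, and those used here follow the order of accessions. Values near 0 CPM of Gm13341 are limited by depth.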

Other observations

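Nuclear genes of the same complexes differed between strains, mostly by little. Of 72 tested nuclear subunits, edgeR's quasi-likelihood test called 33 for CAST/EiJ minus C57BL/6J (10 higher, 23 lower), or 45.8%, where 52.2% of all genes were called. The largest was Atp5g2, a gene for subunit c of ATP synthase, which was higher in CAST/EiJ by 3.46 ± 0.09 on the log2 scale (SE, adjusted p = 1.04e-23). Its relative Atp5g1 fell by 0.37 ± 0.05 (adjusted p = 1.11e-06), and Ndufs5, a complex I subunit, fell by 0.70 ± 0.05 (adjusted p = 7.72e-13). The other changes named, in log2 units of CAST/EiJ minus C57BL/6J, were small. In complex I they were 0.37 for Ndufb6, 0.23 for Ndufs6, 0.18 for Ndufab1, -0.33 for Ndufa10 and -0.32 for Ndufv1. In complex III they were 0.19 for Uqcrc1, 0.16 for Uqcrc2, 0.12 for Uqcrfs1, -0.37 for Uqcrh and -0.20 for Uqcrb. In complex IV they were 0.24 for Cox6a1, 0.23 for Cox7a2, -0.28 for Cox6c, -0.26 for Cox7c and -0.18 for Cox4i1, and in ATP synthase 0.18 for Atp5j2, -0.15 for Atp5d and -0.13 for Atp5j. For NZO/HlLtJ minus C57BL/6J, 7 of 72 were called, or 9.72%, against 23.8% of all genes. They were Ndufa12 (0.13), Ndufa7 (-0.21), Ndufa9 (-0.15), Ndufc2 (-0.13), Cox6a1 (0.40), Cox7c (-0.16) and Atp5j2 (0.15).

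Of 48 tested genes for mitochondrial transcription, RNA processing and DNA maintenance, 31 were called for CAST/EiJ minus C57BL/6J (13 higher, 18 lower), or 64.6%, where 52.2% of all genes were called. Tfam, which packs and transcribes mitochondrial DNA, fell by 0.59 ± 0.03 (adjusted p = 3.77e-16), and Tfb2m, a transcription factor of mitochondria, fell by 0.55 ± 0.05 (adjusted p = 2.66e-11). Ssbp1, the mitochondrial single-strand binding protein, was higher by 1.04 ± 0.04 (adjusted p = 5.71e-20), and Mterf1b by 1.74 ± 0.13 (adjusted p = 6.59e-13). Mterf1a and Mterf1b are near-identical genes, so reads could be split between them. The others with the largest called changes were Mterf3 (0.61), Mterf1a (0.60), Fastkd2 (-0.38), Peo1 (0.59), Top1mt (0.43), Dna2 (-0.76), Mpv17 (-0.53) and Lig3 (-0.45). For NZO/HlLtJ minus C57BL/6J, 11 of 48 were called, or 22.9%, against 23.8% of all genes. The largest called changes were those of Lactb2 (0.43), Tbrg4 (0.17), Elac2 (-0.27), Mterf3 (-0.24), Peo1 (0.21), Polg (0.20), Ssbp1 (0.12), Mgme1 (-0.18), Rrm2b (-0.18) and Rnaseh1 (-0.17).

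Oligodendrocyte markers moved with the contrast of CAST/EiJ and C57BL/6J. Over all genes, 52.2% were called for this contrast in either direction. Of 8 oligodendrocyte markers 7 were lower in CAST/EiJ by edgeR's quasi-likelihood test and 0 higher, with a median log2 change of -0.43. Their summed level was 10505 CPM on average in CAST/EiJ (6449 to 12347) and 14728 CPM in C57BL/6J (12716 to 16283). Of the red blood cell markers 4 of 6 were lower in CAST/EiJ and 0 higher, and of the microglial markers 3 of 7 were lower and 0 higher. Red blood cell sums were 1778 ± 731 CPM in CAST/EiJ and 1565 ± 921 CPM in C57BL/6J on the control diet. On HFHS they were 273 ± 65.0 and 1018 ± 1016 CPM (SD, n = 6 each). For diet in CAST/EiJ, Slc4a1 (-2.98), Alas2 (-2.91) and Hbb-bt (-2.86) were called by the same test, as was the astrocyte marker Gfap (1.09). Between the strains, astrocyte markers were called in both directions (Aldh1l1 -0.61, Slc1a2 0.26), as were neuronal markers (Stmn2 -0.13, Gad1 0.50). Their part in the differences of the nuclear and mitochondrial genes between strains was not tested.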
